A study of Mus musculus with 6 samples.

Results

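The 10 genes described here make, renew or spend glutathione, the most abundant small thiol of animal cells: the cystine importer Slc7a11, the synthesis genes Gclc, Gclm and Gss, the reductase gene Gsr, and the peroxidase genes Gpx1, Gpx3, Gpx4, Gpx7 and Gpx8. They were taken by symbol from the deposited table, and all 10 were found among the 38896 genes listed and passed the filter on low counts, which left 19869 genes tested. The libraries came from fibroblasts of the mouse distal colon, the connective-tissue cells beneath the bowel epithelium. Mice were 6 weeks old, and the cells were passaged 2 times and then kept for 24 h in inflammatory or control conditioned medium. The groups were DSS, with 3 libraries, and control (Ctrl), with 3 libraries, and each of the mice 1716, 1717 and 1718 gave 1 library to each group. The labels carry the group names under a genotype tag, whereas the design text speaks of media, and DSS libraries are read here as the inflammatory-medium cultures. DSS commonly stands for dextran sulfate sodium, used to induce colitis in mice. The sources used here do not say how the media were made, or give the strain, the sex or any engineered allele.

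Cells import cystine in exchange for glutamate, reduce it to cysteine and join it to glutamate and then to glycine. Glutamate-cysteine ligase, a pair of a catalytic and a modifier subunit, carries out the first and rate-limiting joining, and glutathione synthetase the second. Glutathione peroxidases use the product to reduce hydrogen peroxide and lipid peroxides, and glutathione reductase turns the oxidised form back with NADPH. Several of these genes are textbook targets of the transcription factor Nrf2, and Slc7a11 is also a target of ATF4, the factor of the amino acid response.

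The libraries held 17293680 to 17931239 estimated counts in DSS and 17734405 to 19482938 in Ctrl. Markers of fibroblasts summed to 25453 to 29636 CPM (counts scaled to the library's size after TMM) in DSS and 43423 to 52063 CPM in Ctrl, and all 10 were detected. Epithelial markers summed to 4.15 to 5.96 CPM in DSS and 10.4 to 14.5 CPM in Ctrl, with 3 of 10 markers high enough to test. Muc2, a mucin gene, made this difference, at 1.48 to 2.55 CPM in DSS and 7.74 to 11.6 CPM in Ctrl, and the other 9 summed to 2.62 to 3.41 CPM in DSS and 2.69 to 2.99 CPM in Ctrl, where the groups overlapped. Macrophage markers summed to 1305 to 2135 CPM in DSS and 2053 to 2943 CPM in Ctrl, and of the 10 tested 1 rose and 3 fell. Of the 10 fibroblast markers 1 rose, Pdgfra, and 5 fell, Col1a1, Col1a2, Col3a1, Vim and Pdgfrb. Col1a1, Col1a2, Col3a1 and Fn1 made up most of the fibroblast sum. Pdgfra averaged 980 ± 127 CPM in DSS and 599 ± 94.1 CPM in Ctrl (SD, n = 3). Dcn was also higher in every DSS library than in every Ctrl library but did not pass (edgeR adjusted p = 0.0557). Smooth muscle markers summed to 1174 to 1363 CPM in DSS and 1597 to 1626 CPM in Ctrl, and of 6 tested Actg2 and Cnn1 fell and Myh11 rose. Beside these marker counts, 7.37% of all genes tested rose and 5.91% fell. Glial markers summed to 637, 323 and 145 CPM in the DSS libraries of mice 1716, 1717 and 1718, and to 610, 430 and 199 CPM in the Ctrl libraries of the same mice. The part of these marker levels in the results below was not tested, and in bulk RNA fewer cells of a type and less RNA per cell cannot be told apart.

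Of the 10 genes, 5 rose and 2 fell in DSS (edgeR quasi-likelihood fit, adjusted p under 0.05 over all genes). Over all genes tested, 7.37% rose and 5.91% fell. The rises were those of Slc7a11, Gclc, Gclm, Gss and Gsr, that is, the importer, both ligase subunits, the synthetase and the reductase. The falls were those of Gpx3 and Gpx7, and no peroxidase gene rose. The median log2 fold change of the 10 genes was 0.71, against 0.01 over all genes tested. With each mouse's pair of libraries taken as a block, the counts were again 5 and 2, where 12.3% of all genes rose and 12.7% fell. In 6 genes every DSS library lay above every Ctrl library, and in 3 every DSS library lay below, where 17.7% and 16.5% of all genes tested did so.

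**Figure D1:**
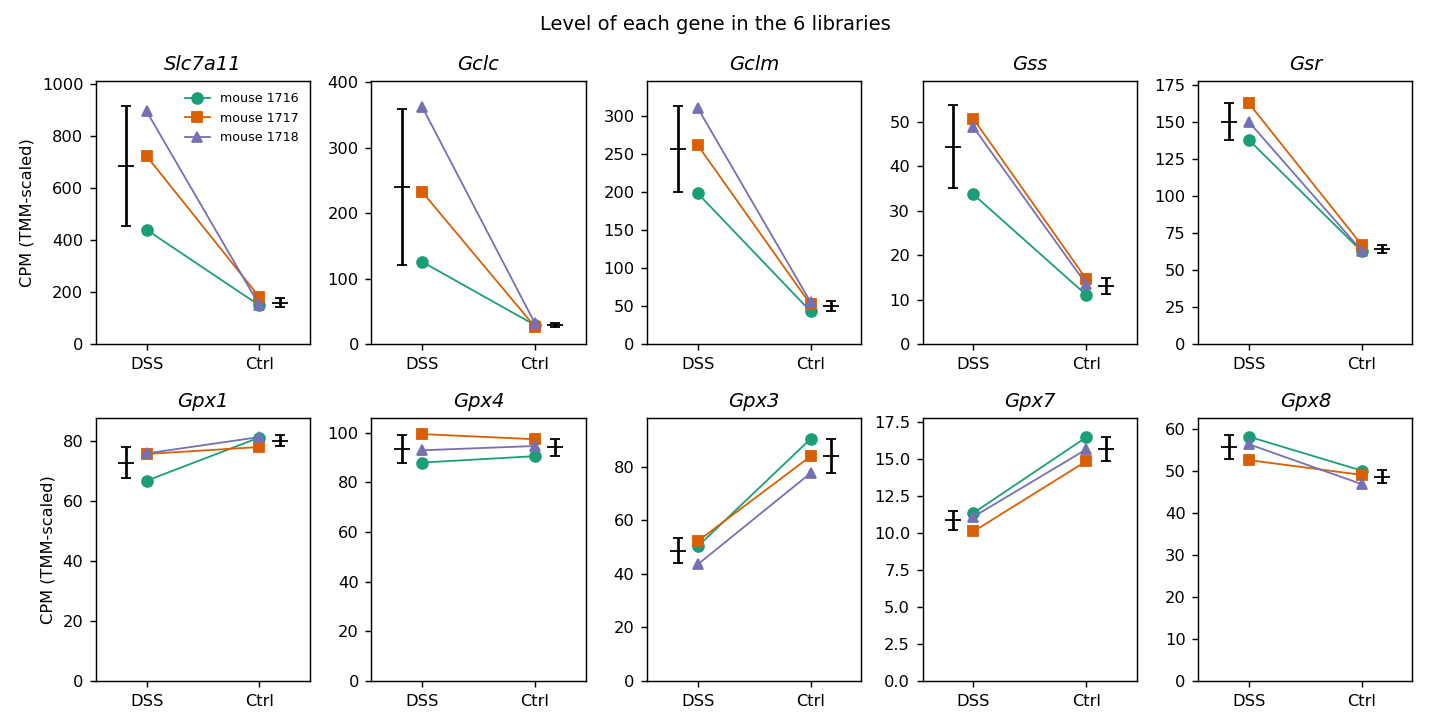
CPM of each gene in the 3 DSS (left) and 3 Ctrl (right) libraries, on linear axes from 0. Lines join the libraries of a mouse, and bars beside the points are the mean ± SD (n = 3). In the upper row all DSS points lie above the Ctrl points, and for Gpx1, Gpx3 and Gpx7 all lie below.

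Slc7a11 (NCBI Gene 26570, chromosome 3, 50364936 to 50499087, GRCm38) encodes the light chain of the cystine and glutamate exchanger, the entry point of cysteine for synthesis. It stood at 439, 722 and 893 CPM in the DSS libraries of mice 1716, 1717 and 1718, and at 149, 181 and 149.5 CPM in the Ctrl libraries. The Ctrl libraries lay close together, while the DSS libraries varied more, and the groups did not overlap. The rise was 4.29-fold (log2 fold change 2.10 ± 0.24 SE, n = 3 each, edgeR adjusted p = 0.00269). It was seen in each animal, with log2 differences of 1.56, 1.99 and 2.58 in mice 1716, 1717 and 1718. Its partner Slc3a2, named after its values were seen and the heavy chain that carries several amino acid transporters to the membrane, averaged 172 ± 27.4 CPM in DSS and 134 ± 28.6 CPM in Ctrl (SD, n = 3). Slc3a2 did not pass without the block (log2 fold change 0.36 ± 0.18, edgeR adjusted p = 0.227) and passed with it (edgeR adjusted p = 0.00503).

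Gclc (NCBI Gene 14629, chromosome 9, 77754535 to 77794489), the catalytic subunit of glutamate-cysteine ligase, had the largest rise of the 10. It stood at 126, 232 and 362 CPM in the DSS libraries of mice 1716, 1717 and 1718, and at 29.2, 26.6 and 31.9 CPM in the Ctrl libraries. The Ctrl libraries differed little, and the lowest DSS library was still far above all of them. The rise was 8.22-fold (log2 fold change 3.04 ± 0.36, edgeR adjusted p = 0.0027) and ranked number 58 of the 19869 genes by size. Without mouse 1717 the call was lost (edgeR adjusted p = 0.0528). The main transcript took 61.2 ± 3.80% of Gclc counts in DSS and 76.4 ± 8.24% in Ctrl (SD, n = 3). A noncoding transcript took 16.3 ± 2.04% in DSS and 10.6 ± 3.76% in Ctrl, with overlap. The rise given is that of the summed counts and not of the main transcript.

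Gclm (NCBI Gene 14630, chromosome 3, 122245487 to 122267215), the modifier subunit that makes the ligase more efficient, stood at 198, 262 and 311 CPM in the DSS libraries of mice 1716, 1717 and 1718. In the Ctrl libraries it stood at 43.3, 52.4 and 55.5 CPM. The rise was 5.10-fold (log2 fold change 2.35 ± 0.18, edgeR adjusted p = 0.000719), with log2 differences of 2.18, 2.31 and 2.47 in the 3 mice, a narrower range than the 2.09, 3.10 and 3.49 of Gclc. The ratio of Gclc to Gclm counts was 0.633, 0.888 and 1.17 in the DSS libraries of mice 1716, 1717 and 1718, and 0.674, 0.507 and 0.574 in the Ctrl libraries. It was higher in DSS in mice 1717 and 1718 and slightly lower in mouse 1716, so the groups overlapped, and the difference was not tested. A ratio within a library does not depend on how libraries are scaled.

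Gss (NCBI Gene 14854, chromosome 2, 155563181 to 155592810), glutathione synthetase, stood at 33.7, 50.6 and 48.8 CPM in the DSS libraries of mice 1716, 1717 and 1718, and at 11.1, 14.7 and 13.5 CPM in the Ctrl libraries. The groups did not overlap, and the rise was 3.39-fold (log2 fold change 1.76 ± 0.18, edgeR adjusted p = 0.00177). The span of Gss overlaps that of Gssos2, a long noncoding gene (chromosome 2, 155567878 to 155594526). Gssos2, named after its values were seen, averaged 47.9 ± 11.6 CPM in DSS and 8.92 ± 0.925 CPM in Ctrl, with a log2 fold change of 2.43 ± 0.19 (edgeR adjusted p = 0.000849). The library kit marks strand, but the sources used here name no strand setting for the counting, so how reads were divided between these overlapping genes is uncertain. The 3 Gss transcripts listed differed by mouse. A predicted transcript took 0.0118%, 19.6% and 16.3% of Gss counts in the DSS libraries of mice 1716, 1717 and 1718, and 0%, 36.0% and 43.7% in the Ctrl libraries. It was near 0 in both libraries of mouse 1716 and present in those of the other mice. Without predicted transcripts the log2 fold change of Gss was 2.06.

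Gsr (NCBI Gene 14782, chromosome 8, 33653238 to 33698162), which regenerates reduced glutathione, had the smallest rise of the 5 and the most even one. It stood at 138, 162 and 150 CPM in the DSS libraries of mice 1716, 1717 and 1718, and at 62.6, 67.0 and 63.0 CPM in the Ctrl libraries. The rise was 2.34-fold (log2 fold change 1.22 ± 0.08, edgeR adjusted p = 0.000534), with log2 differences of 1.13, 1.27 and 1.24 in the 3 mice.

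The mice differed in how far these genes rose. The DSS library of mouse 1716 was the lowest of the 3 DSS libraries for Slc7a11, Gclc, Gclm, Gss and Gsr. That of mouse 1718 was the highest for Slc7a11, Gclc and Gclm, and that of mouse 1717 for Gss and Gsr. The glial markers given above were highest in mouse 1716 and lowest in mouse 1718 in both groups. In DSS this was the reverse of Slc7a11, Gclc and Gclm, but not of Gss and Gsr. Fibroblast markers summed to 29636, 28457 and 25453 CPM in the DSS libraries of mice 1716, 1717 and 1718. In the Ctrl libraries they ran the other way, at 43423, 49208.5 and 52063 CPM. Col1a1, Col1a2, Col3a1 and Fn1 made up most of these sums, and not every marker ran as the sum did. In DSS, Col1a1, Col1a2, Col3a1 and Vim fell from mouse 1716 to mouse 1718. Pdgfra (840, 1086 and 1015 CPM) and Dcn (1984, 2480 and 2621 CPM) were lowest in mouse 1716. Fn1, Lum, Pdgfra, Pdgfrb and Thy1 were highest in mouse 1717. The part of either marker set in this difference between mice was not tested. With 1 library a mouse and group, the difference between animals cannot be tested either. The ratio of Gss to Gclc counts was 0.268, 0.218 and 0.135 in the DSS libraries of mice 1716, 1717 and 1718, and 0.380, 0.553 and 0.424 in the Ctrl libraries. All DSS ratios lay below all Ctrl ratios, a comparison chosen after the values were seen.

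**Figure D2:**
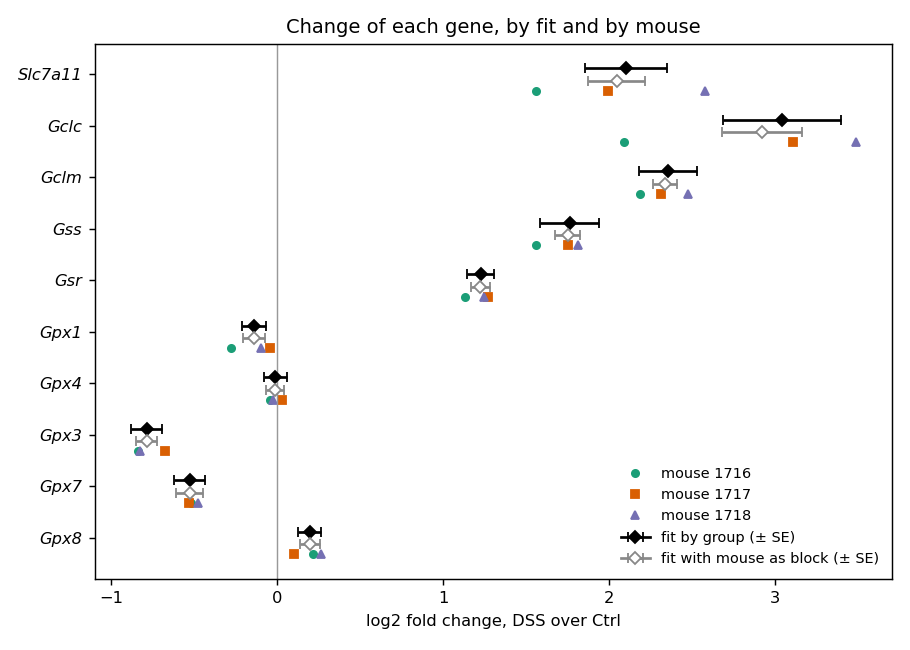
Log2 fold change of DSS over Ctrl for each gene, with filled diamonds for the fit by group and open diamonds for the fit blocked by mouse (± SE), and the difference in each mouse as coloured points. The import, synthesis and reductase genes lie from 1.22 to 3.04 and the peroxidase genes between -0.79 and 0.19.

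The upstream sequences of Slc7a11 and Gclm are shown because both genes rose and each held matches of a motif known from this pathway. Promoter sequences of RefSeq (GRCm38.p6) were given for 8 of the 10 genes, not Gclc and Gsr, with 4 starts for Gpx4. Each start is that of a transcript in the table and need not be the end of the gene's span: the Slc7a11 window lies inside the span given above, and the Gclm window overlaps its beginning. The 250 bases before each start were searched, with motifs chosen after the values were seen, on both strands for TGACNNNGC, the core of the antioxidant response element to which Nrf2 binds with small Maf proteins, and for TGATGNAA, the core of the element bound by ATF4 with C/EBP proteins. The motifs do not overlap in the matches found. Capitals in the sequences mark the matches.
Slc7a11, chr3:50443614-50443863, minus strand: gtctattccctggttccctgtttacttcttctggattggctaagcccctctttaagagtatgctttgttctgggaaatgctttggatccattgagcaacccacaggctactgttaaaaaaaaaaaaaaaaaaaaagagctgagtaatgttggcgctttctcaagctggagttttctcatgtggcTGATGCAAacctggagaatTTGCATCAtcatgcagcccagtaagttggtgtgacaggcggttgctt
Gclm, chr3:122245307-122245556, plus strand: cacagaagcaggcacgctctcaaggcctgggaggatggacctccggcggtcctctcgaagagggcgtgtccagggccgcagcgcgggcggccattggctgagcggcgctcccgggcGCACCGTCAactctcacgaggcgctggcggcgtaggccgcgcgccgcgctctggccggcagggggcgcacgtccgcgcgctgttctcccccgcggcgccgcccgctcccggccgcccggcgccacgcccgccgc

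The Slc7a11 window held 2 matches of TGATGNAA on opposite strands, 66 to 59 and 47 to 40 bases before the start, and 0 of TGACNNNGC. Of the 32851 windows of the same length in the RefSeq table, 1134 (3.45%) held TGATGNAA and 13 (0.0396%) held it at least 2 times. The Gclm window held 1 match of TGACNNNGC on the reverse strand, 134 to 126 bases before the start, and 3338 of the windows (10.2%) held at least 1. The windows of Gss, Gpx1, Gpx3, Gpx4, Gpx7 and Gpx8 held 0 matches of either motif. A match is a run of letters and not evidence of binding, and a window without one says nothing of the factor.

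No peroxidase gene passed as higher in DSS. They are shown beside each other around the codon of the active site, because they divide there into enzymes with selenocysteine and enzymes with cysteine. In Gpx1, Gpx3 and Gpx4 this codon is TGA, read as selenocysteine, and in Gpx7 and Gpx8, which reside in the endoplasmic reticulum, it is a cysteine codon. Each line gives 5 codons before and 5 codons after it, from GENCODE transcripts (release M21, GRCm38), with the active-site codon in capitals.
Gpx1, chr9:108339436-108339468, plus strand: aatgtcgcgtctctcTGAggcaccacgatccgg
Gpx3, chr11:54907241-54907273, plus strand: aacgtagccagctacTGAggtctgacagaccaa
Gpx4, chr10:80054722-80054754, plus strand: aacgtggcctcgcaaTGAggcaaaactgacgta
Gpx7, chr4:108403415-108403447, minus strand: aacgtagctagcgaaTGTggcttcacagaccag
Gpx8, chr13:113045646-113045678, minus strand: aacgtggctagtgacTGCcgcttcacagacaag

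Gpx3 (NCBI Gene 14778, chromosome 11, 54902854 to 54910387), the secreted selenoenzyme, stood at 50.3, 52.2 and 43.5 CPM in the DSS libraries of mice 1716, 1717 and 1718, and at 90.4, 83.9 and 77.6 CPM in the Ctrl libraries. All DSS libraries lay below all Ctrl libraries. It fell by 0.79 ± 0.09 on the log2 scale, to 0.580 of the Ctrl level (edgeR adjusted p = 0.00282), and the log2 differences were -0.84, -0.68 and -0.83 in the 3 mice. Of its 2 transcripts listed, the minor one took 8.05 ± 0.960% of Gpx3 counts in DSS and 3.18 ± 0.521% in Ctrl (SD, n = 3). Its estimated counts were 68.6, 66.8 and 69.8 in the DSS libraries of mice 1716, 1717 and 1718, and 51.4, 43.9 and 51.2 in the Ctrl libraries. The fall given is that of the summed counts, and the minor transcript did not share it.

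Gpx7 (NCBI Gene 67305, chromosome 4, 108400217 to 108406713), a cysteine enzyme of the endoplasmic reticulum that takes part in oxidative protein folding, had the lowest level per length of the 10 in DSS. It stood at 11.4, 10.1 and 11.1 CPM in the DSS libraries of mice 1716, 1717 and 1718, and at 16.5, 14.9 and 15.6 CPM in the Ctrl libraries, and it fell by 0.53 ± 0.09 on the log2 scale (edgeR adjusted p = 0.0111). The call was lost without mouse 1716 (edgeR adjusted p = 0.0501), mouse 1717 (0.107) or mouse 1718 (0.089), in fits with 2 libraries a group. Gpx8 (NCBI Gene 69590, chromosome 13, 113042757 to 113046430), its closest relative and likewise of the endoplasmic reticulum, stood at 58.2, 52.6 and 56.4 CPM in the DSS libraries, and at 50.1, 49.1 and 46.9 CPM in the Ctrl libraries. Every DSS library was above every Ctrl library, but the difference was small and did not pass (log2 fold change 0.19 ± 0.07, edgeR adjusted p = 0.105, and 0.0543 with the mouse as a block). The ratio of Gpx7 to Gpx8 counts was 0.195, 0.192 and 0.197 in the DSS libraries of mice 1716, 1717 and 1718, and 0.329, 0.302 and 0.334 in the Ctrl libraries. Within each group this ratio was nearly constant across animals, and the groups lay far apart.

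**Figure D3:**
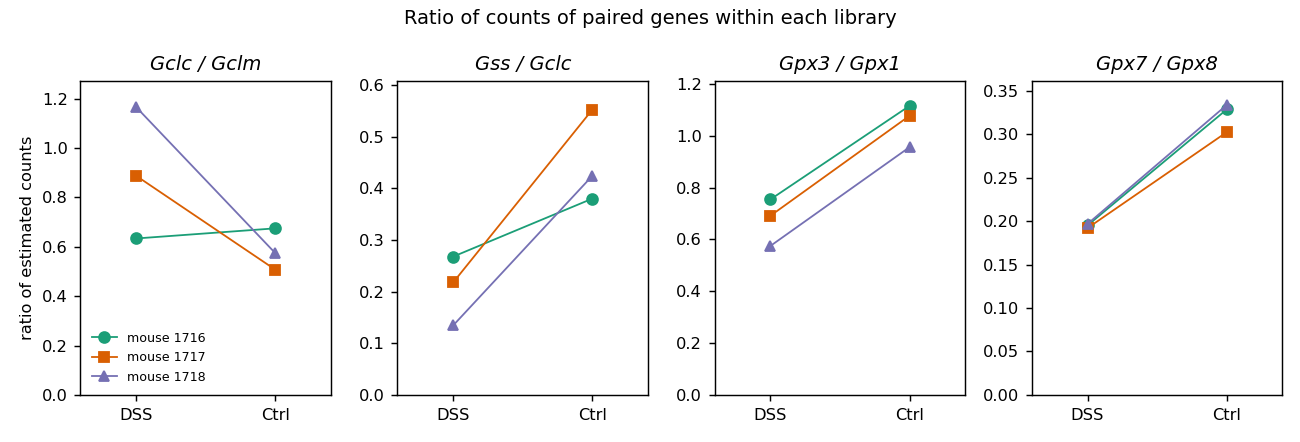
Ratio of estimated counts of a pair of genes in each library, DSS left and Ctrl right, with lines joining the libraries of a mouse. The ratio of Gclc to Gclm crosses between animals, from 0.633 to 1.17 in DSS and 0.507 to 0.674 in Ctrl, whereas that of Gpx7 to Gpx8 lies at 0.192 to 0.197 in DSS and 0.302 to 0.334 in Ctrl.

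Gpx4 (NCBI Gene 625249, chromosome 10, 80047166 to 80056439), the selenoenzyme that reduces lipid peroxides within membranes and protects cells from ferroptosis, stood at 88.0, 99.4 and 92.9 CPM in the DSS libraries of mice 1716, 1717 and 1718, and at 90.6, 97.4 and 94.6 CPM in the Ctrl libraries. The groups overlapped, and the log2 fold change was -0.01 ± 0.07 (edgeR adjusted p = 0.942), with a sign that varied between settings. Its main transcript took 80.5 ± 1.48% of Gpx4 counts in DSS and 86.3 ± 3.15% in Ctrl. Gpx1 (NCBI Gene 14775, chromosome 9, 108339080 to 108340342), the peroxidase of the cytosol and mitochondria, stood at 66.6, 75.6 and 75.7 CPM in DSS, and at 81.0, 77.9 and 81.2 CPM in Ctrl. Its DSS libraries lay below its Ctrl libraries by a small amount that did not pass (log2 fold change -0.14 ± 0.07, edgeR adjusted p = 0.251). The ratio of Gpx3 to Gpx1 counts, chosen after the values were seen, was 0.754, 0.691 and 0.575 in the DSS libraries of mice 1716, 1717 and 1718, and 1.12, 1.08 and 0.956 in the Ctrl libraries, so the groups did not overlap. The ratio of Gpx1 to Gpx4 was 0.757, 0.760 and 0.815 in the DSS libraries and 0.895, 0.800 and 0.858 in the Ctrl libraries. These groups overlapped, but within each mouse the ratio was lower in DSS, with log2 differences of -0.24, -0.07 and -0.07, which were not tested. The other peroxidase genes of the family, Gpx2, Gpx5 and Gpx6, held sums of 2, 3 and 6 counts over the 3 DSS libraries and 2, 1 and 1 over the 3 Ctrl libraries, too few to test.

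Levels were compared between genes as CPM per kilobase of the matched GENCODE transcript. On this scale Gpx4 had the highest mean of the 10 in both groups, at 97.5 ± 6.00 in DSS and 98.2 ± 3.58 in Ctrl (SD, n = 3). In Ctrl it was followed by Gpx1 (74.6 ± 1.74), Gpx3 (52.7 ± 4.01) and Gpx8 (46.7 ± 1.58), with Gclm (9.01 ± 1.14), Gclc (8.53 ± 0.774) and Gss (6.68 ± 0.933) at the bottom, the first 2 of these within their spread of each other. In DSS, Slc7a11 (74.2 ± 24.9), Gclc (70.2 ± 34.6) and Gpx1 (67.8 ± 4.85) came next and did not differ beyond their spread. The means of Slc7a11 and Gclc came within their spread of Gpx4, but that spread is a difference between mice. In the DSS library of mouse 1716 Gpx4 (91.7) was above Slc7a11 (47.6) and Gclc (36.7). In that of mouse 1717 it was also above them (104, against 78.3 and 67.9). In the DSS library of mouse 1718 Gclc (106) was above Gpx4 (96.9), and Slc7a11 (96.9) was about level with Gpx4. Gpx3 (30.5 ± 2.86) was eighth. These levels assume the length of the matched transcript, which for Gpx4 was not its main one.

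Other genes of the pathway were counted by lists. Fits without 1 library or 1 mouse called fewer genes over all, 649 to 2418, where all libraries gave 2639. The counts of each list in such fits are to be read beside that range. Of 25 tested genes for the building blocks, breakdown or use of glutathione, 4 rose and 3 fell (median log2 fold change 0.13). The shares over all genes were 7.37% and 5.91%. Ggt1, which begins the breakdown of glutathione outside the cell, averaged 29.7 ± 4.80 CPM in DSS and 9.10 ± 1.38 CPM in Ctrl (edgeR adjusted p = 0.00142), and Mgst1, a microsomal glutathione transferase, rose by 1.28 ± 0.19 on the log2 scale. Esd, which completes the removal of formaldehyde bound to glutathione, rose by 0.91 ± 0.10. Shmt2, a mitochondrial enzyme that makes glycine from serine, averaged 25.3 ± 1.65 CPM in DSS and 77.4 ± 17.1 CPM in Ctrl (edgeR adjusted p = 0.00168). Cth, the last enzyme of cysteine synthesis from methionine and named after its values were seen, stood at 3.42, 6.53 and 4.72 CPM in the DSS libraries of mice 1716, 1717 and 1718, and at 7.50, 19.3 and 26.0 CPM in the Ctrl libraries (edgeR adjusted p = 0.0356). The other genes past the threshold, likewise named afterwards, were Oplah, which recycles 5-oxoproline to glutamate (log2 fold change 0.76 ± 0.11), and Chac1, which degrades glutathione inside the cell (-1.97 ± 0.40). The fall of Cth lost its call in 7 of 9 fits without 1 library or 1 mouse (edgeR adjusted p = 0.0585 to 0.206), and held without Ctrl 1716 or mouse 1716. It was also lost with limma-voom (limma adjusted p = 0.0914) and without predicted transcripts (edgeR adjusted p = 0.0617). Without mouse 1717, 2 genes of the list rose and 1 fell, and the adjusted p was 0.0559 for Mgst1. The count that fell was also 1 without DSS 1717, DSS 1718, Ctrl 1717 or mouse 1718, and 1 with limma-voom. With the block 6 rose and 4 fell, where 12.3% and 12.7% of all genes did. The added ones were Ggt5 (edgeR adjusted p = 0.0035), Slc3a2 and Glrx (0.00382), of which Glrx was lower.

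Most genes of the amino acid response fell. Of 14 tested, 9 fell and 1 rose (median log2 fold change -0.96), against 5.91% and 7.37% of all genes. Phgdh, the first enzyme of serine synthesis, averaged 13.1 ± 1.31 CPM in DSS and 52.8 ± 16.0 CPM in Ctrl (edgeR adjusted p = 0.00247). Slc7a5, the light chain of another transporter that pairs with Slc3a2, averaged 13.4 ± 0.807 CPM in DSS and 110.8 ± 55.1 CPM in Ctrl. Asns, asparagine synthetase, fell by 1.86 ± 0.26 and Sesn2, a stress-induced inhibitor of growth signalling, by 1.02 ± 0.17 on the log2 scale. The median log2 difference of this list was -0.53 in mouse 1716 and -1.28 in mouse 1718, with mouse 1717 between them. The count that fell was 0 without mouse 1717 and 2 without mouse 1718. Over all genes, fits without 1 library or 1 mouse called 185 to 1108 as lower, where all libraries gave 1174. Without mouse 1717 the edgeR adjusted p was 0.0507 for Phgdh, 0.064 for Slc7a5, 0.0844 for Asns and 0.112 for Sesn2, and without mouse 1718 it was 0.0558 for Asns and 0.0529 for Sesn2. The 1 gene that rose, named after its values were seen, was Cebpb, a transcription factor gene (log2 fold change 0.47 ± 0.10), and none rose without DSS 1717, DSS 1718, any 1 Ctrl library, mouse 1717 or mouse 1718. With the block 2 rose and 11 fell, where 12.3% and 12.7% of all genes did. Atf4 itself, also named afterwards, fell by 0.90 ± 0.16.

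Among regulators of the antioxidant response, 5 of 10 tested genes rose and 0 fell (median log2 fold change 0.27). The shares over all genes were 7.37% and 5.91%. Nfe2l2, which encodes Nrf2, averaged 131 ± 12.2 CPM in DSS and 91.9 ± 8.48 CPM in Ctrl (edgeR adjusted p = 0.0138), Mafg, a small Maf partner, rose by 0.55 ± 0.09, and Sqstm1, an adaptor that takes the Nrf2 inhibitor Keap1 to autophagy, by 1.11 ± 0.15. Mafk rose by 0.45 ± 0.11 and Maff, named after its values were seen, by 0.29 ± 0.07. The count that rose was 0 without mouse 1717 or mouse 1718, 2 without Ctrl 1716 or Ctrl 1717, and 3 without DSS 1716, DSS 1718, Ctrl 1718 or mouse 1716. It was 2 without predicted transcripts, where Mafg (edgeR adjusted p = 0.693) and Mafk (0.0955) lost their calls, and 1 fell without Ctrl 1716. The edgeR adjusted p of Nfe2l2 was 0.0526 without Ctrl 1716, 0.0629 without Ctrl 1717, 0.145 without mouse 1717 and 0.0667 without mouse 1718. Without mouse 1717 it was 0.0651 for Sqstm1, 0.113 for Mafg and 0.110 for Mafk, and without mouse 1718 it was 0.0529, 0.0738 and 0.154 for the same genes. Mafk also lost its call without DSS 1716, DSS 1718, mouse 1716 or any 1 Ctrl library (0.0623 to 0.136).

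Of 17 enzymes that remove peroxide or superoxide by other routes or form disulfides, 8 rose and 3 fell (median log2 fold change 0.26). Of the 5 glutathione peroxidase genes tested 0 rose and 2 fell, where 7.37% and 5.91% of all genes did. The difference between these sets was not tested. Prdx1, a peroxidase that draws on thioredoxin, averaged 2879 ± 720 CPM in DSS and 323 ± 40.7 CPM in Ctrl (edgeR adjusted p = 0.000569), and Srxn1, which repairs overoxidised peroxiredoxins, rose by 2.17 ± 0.22. Prdx6, which uses glutathione in place of thioredoxin, averaged 993 ± 341 CPM in DSS and 214 ± 39.1 CPM in Ctrl, and Txn1, thioredoxin itself, rose by 0.54 ± 0.08. Named afterwards, the 3 lower ones were Ero1a, P4hb and Tmx1, which form or pass on disulfides in the endoplasmic reticulum, with log2 fold changes of -0.97 ± 0.22, -0.66 ± 0.11 and -0.40 ± 0.07. Without mouse 1717, 3 rose and 0 fell, and without mouse 1718, 2 rose and 0 fell. Without Ctrl 1717, 1 fell. The edgeR adjusted p of Txn1 was 0.0962 without mouse 1717 and 0.057 without mouse 1718, and that of Prdx6 was 0.0517 without mouse 1718.

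Gpx1, Gpx3 and Gpx4 need selenocysteine. Of 13 tested genes that take up selenium or make, insert or break down selenocysteine, 3 rose and 1 fell (median log2 fold change 0.18). The shares over all genes were 7.37% and 5.91%. Lrp8, a receptor that takes up the selenium carrier selenoprotein P, averaged 31.3 ± 4.24 CPM in DSS and 15.6 ± 0.566 CPM in Ctrl (edgeR adjusted p = 0.00216). Secisbp2l, a relative of the protein that reads the selenocysteine signal, rose by 0.56 ± 0.09 and Sephs2, which makes the selenium donor, by 0.34 ± 0.09, while Sars, which charges serine to its transfer RNA, fell by 0.67 ± 0.13. Among 17 further selenoprotein genes 2 passed as higher and 4 as lower in DSS (median -0.15), beside the same shares over all genes. The thioredoxin reductase gene Txnrd1 rose by 2.03 ± 0.12 and Dio2, a deiodinase that activates thyroid hormone, by 2.76 ± 0.41, while Dio3, which inactivates it, averaged 1.37 ± 1.01 CPM in DSS and 12.2 ± 4.81 CPM in Ctrl. Selenos, a protein of the endoplasmic reticulum membrane, fell by 0.59 ± 0.10, and Selenom and Selenof, named after their values were seen, by 0.47 ± 0.08 and 0.25 ± 0.06. In the selenium and selenocysteine list 1 rose and 0 fell without mouse 1717 and without mouse 1718. In that list 0 fell without DSS 1717 or Ctrl 1717, and 1 rose without predicted transcripts. Among the other selenoproteins 2, 0 and 1 fell without mice 1716, 1717 and 1718, and 1 rose without mouse 1717. With the block 3 of them rose and 7 fell, where 12.3% and 12.7% of all genes did. Without mouse 1717 the edgeR adjusted p was 0.0725 for Dio2, 0.12 for Dio3, 0.112 for Selenos, 0.0647 for Secisbp2l, 0.154 for Sars and 0.299 for Sephs2. Without mouse 1718 it was 0.0691 for Selenos, 0.0851 for Secisbp2l, 0.0917 for Sars and 0.251 for Sephs2. Sars also lost its call without DSS 1717 (0.0524), DSS 1718 (0.0548) or Ctrl 1717 (0.0576), and Lrp8 without predicted transcripts (log2 fold change 0.55, edgeR adjusted p = 0.179). The call of Sephs2 was also lost without mouse 1716, without DSS 1717, DSS 1718 or any 1 Ctrl library, and under 6 other settings, DESeq2 and limma-voom among them.

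Beside Gpx4, 17 genes that form or restrain lipid peroxides or handle iron were tested. Of these 5 rose and 1 fell (median log2 fold change 0.22), against 7.37% and 5.91% of all genes. Nqo1, a quinone reductase, averaged 440 ± 111 CPM in DSS and 109 ± 14.8 CPM in Ctrl (edgeR adjusted p = 0.00143). Gch1, the first enzyme of tetrahydrobiopterin synthesis, rose by 0.89 ± 0.12, and Ftl1, the ferritin light chain, averaged 1964 ± 234 CPM in DSS and 1146 ± 95.4 CPM in Ctrl. The other 2 that rose, named after their values were seen, were Fth1, the ferritin heavy chain (0.77 ± 0.14), and Sat1, a polyamine acetyltransferase (0.58 ± 0.13). Alox5, a lipoxygenase typical of leukocytes, fell by 1.01 ± 0.18. Of the macrophage markers Itgam, C1qa and Lyz2 fell, Cd68 rose and the other 6 did not pass, and their part in the fall of Alox5 was not tested. With the block 8 rose and 2 fell, where 12.3% and 12.7% of all genes did. Without mouse 1717 and without mouse 1718, 1 rose and 0 fell, and 3 rose without Ctrl 1718. Without mouse 1717 and without mouse 1718 the edgeR adjusted p was 0.0515 and 0.0575 for Gch1, 0.0748 and 0.0747 for Ftl1, and 0.103 and 0.0821 for Alox5.

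**Figure D4:**
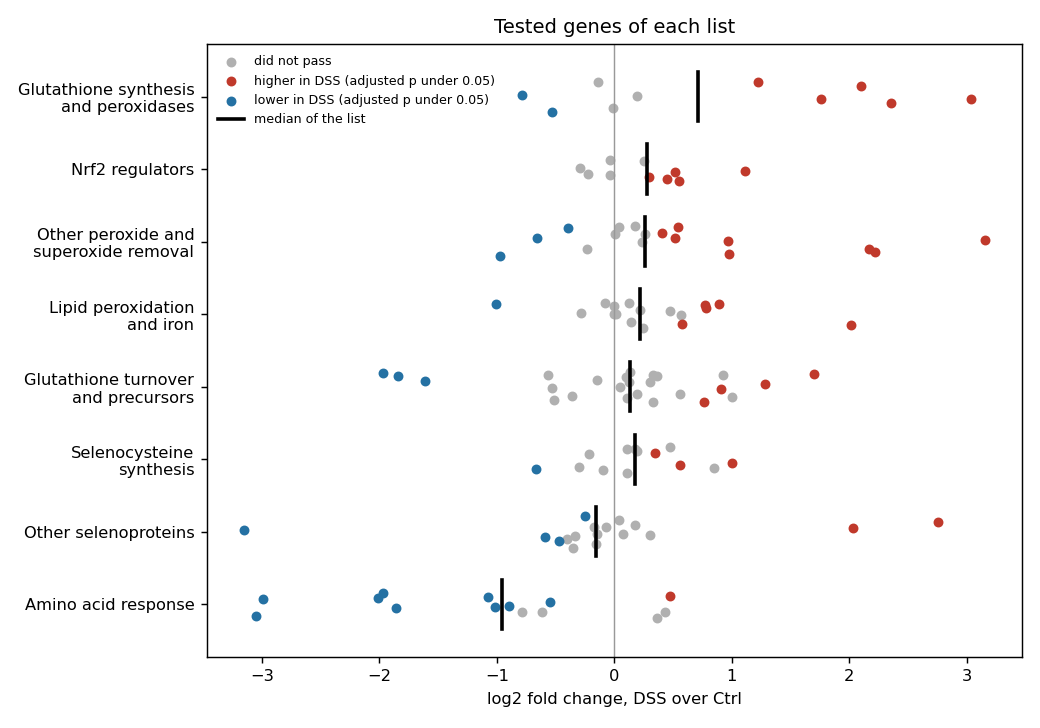
Log2 fold change of DSS over Ctrl for every tested gene of each list, red where higher and blue where lower in DSS at an adjusted p under 0.05, grey where the gene did not pass, with a bar at the median of the list. The medians run from 0.71 for the glutathione synthesis and peroxidase genes to -0.96 for the amino acid response.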

How the data were processed

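Estimated counts of RefSeq transcripts, 1 column a library, are what the authors deposited, from ribosomal-RNA-depleted total RNA. Per the submitters' processing notes the counts came from kallisto on GRCm38 (mm10); the sources used here name no version, setting or strand option. Counts of the 120299 transcripts were summed by symbol to 38896 genes and rounded. After filterByExpr, with a minimum count of 10 and a minimum total of 15, and TMM scaling, DSS was compared with Ctrl by edgeR's quasi-likelihood test with Benjamini-Hochberg adjustment over 19869 genes (threshold 0.05). SE is the log2 fold change divided by the square root of F. Differences per mouse are of log2(CPM + 0.5). No list was tested. The method was also run on simulated data, and the outcome is not reported here. Tests ran in edgeR 4.0.16, DESeq2 1.42.0 and limma 3.58.1 under R 4.3.3, and tables and figures used matplotlib 3.10.9 and pandas 2.3.3 under Python 3.11.15.

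Both groups came from the same animals, which pairs the libraries. Deviations from group means correlated across genes with r = 0.40, 0.25 and 0.52 within mice 1716, 1717 and 1718, and -0.41 to 0.02 between mice. Because each group was centred on its own mean, positive values within mice push those between mice down, so this contrast is partly built in. The block was an alternative. The genes and lists were chosen with earlier results of these data known. All 10 genes were named, and of each list genes among the 4 with the smallest p, unless stated.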

Additional observations from a re-analysis of the deposited data

How the results depend on the processing

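The 5 rises and 2 falls held under DESeq2 size factors, library size alone, no filter on low counts, DESeq2, limma-voom, only curated transcripts, ribosomal RNA left out, and the mouse as a block with edgeR or DESeq2. The block changed no call among the 10 genes, and their median log2 fold change stayed at 0.70 to 0.73 in these settings. Over all genes the counts of 1465 higher and 1174 lower, 2639 together, became 2447 and 2518, 4965 together, with the block, and 842 and 666, 1508 together, with curated transcripts alone. Leaving out 1 library or both libraries of 1 mouse gave 4 to 5 rises, 1 to 2 falls and a median of 0.68 to 0.73. Over all genes it gave 649 to 2418 calls, 378 to 1310 higher and 185 to 1108 lower, and over the other lists together 8 to 29 rises and 1 to 22 falls, where all libraries gave 28 and 20. With 3 libraries a group, fits without a mouse had 2 a group.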
